A study of Homo sapiens with 6 samples.

Results

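The 10 genes described here encode cyclins and the kinases that they switch on: CDK4, CDK6, CDK1, CDK2, CCND2, CCND3, CCNA2, CCNB1, CCNB2 and CCNE2. They were taken by gene symbol from the 22125 genes with at least 1 cross-link position in either of the 2 tables. All 10 were found in GM01953, and 9 were found in DoHH-2, where CCND2 had no position. CDK4, an mRNA from which the study made test RNAs for binding assays, was used as the reference for the other 9.

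RNA bound by eIF4B was mapped by iCLIP, which marks the nucleotide next to the place where reverse transcription stopped at the cross-linked protein. DoHH-2 is a cell line from a diffuse large B-cell lymphoma (DLBCL), and 4 iCLIP samples of it are listed. GM01953 is a B-cell line from a disease-free donor that served as the control, with 2 samples. Neither line was treated, the lines are not isogenic, and the disease cannot be told apart from other differences between them. The deposited tables hold 1 pooled value per position and cell line, so no SD and no test between the lines can be given, and every interval below covers counting error only. DoHH-2 had 2033156 cDNA counts and GM01953 had 167197, so that 1 count equals a level of 0.492 in DoHH-2 and of 5.98 in GM01953 once counts are scaled to 1000000 (cpm). Of 6 B-cell marker genes, 5 had counts in DoHH-2 and 6 in GM01953. PAX5, which maintains B-cell identity, had 554 counts in DoHH-2 (272 cpm) and 58 in GM01953 (347 cpm). MS4A1, which encodes the surface protein CD20, had 13 (6.39 cpm) and 152 (909 cpm), and CD22, a B-cell surface lectin, had 0 and 27. Summed, the 6 markers had 784 counts (386 cpm) in DoHH-2 and 305 (1824 cpm) in GM01953. Among 10 markers of T, myeloid, NK and erythroid cells, none had a count in DoHH-2 and NKG7 alone had counts (4) in GM01953.

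Cyclins accumulate and are destroyed at set times of the cell cycle, and each activates a partner kinase. D-type cyclins with CDK4 or CDK6 phosphorylate the retinoblastoma protein in G1, E-type cyclins with CDK2 carry cells into S phase, cyclin A acts through S phase and G2, and B-type cyclins with CDK1 drive mitosis. eIF4B is a cofactor of the RNA helicase eIF4A, which unwinds 5′ UTRs for the scanning ribosome.

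eIF4B cross-links were recovered on 9 of the 10 mRNAs in both lines. CCND2 and CDK6 were higher in GM01953 beyond counting error, although for CDK6 not when each position was counted once (ratio 0.542, 0.247–1.41), and the intervals of the other 8 genes overlapped between the lines. By the same rule, of 6217 coding genes with a mean of at least 30 cpm, the intervals did not overlap for 17.7%, higher in GM01953, and for 16.3%, higher in DoHH-2. CDK4 had 468 counts in DoHH-2 (230 cpm, exact Poisson 95% interval 210–252) and 34 in GM01953 (203 cpm, 141–284), so the intervals overlapped. CCND2 had 65 counts in GM01953 (389 cpm, 300.0–496) and none in DoHH-2, where a count of 0 allows up to 1.48 cpm (3 counts, the limit used here for a count of 0) or, by the exact Poisson interval, 1.81 cpm. CDK6 had 68 counts in DoHH-2 (33.4 cpm, 26.0–42.4) and 24 in GM01953 (144 cpm, 92.0–214), and these intervals did not overlap. Among the mitotic genes, CCNB1 was at 140 and 144 cpm, CCNA2 at 116 and 114 cpm, CCNB2 at 101 and 71.8 cpm and CDK1 at 76.7 and 108 cpm in DoHH-2 and GM01953.

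**Figure D1:**
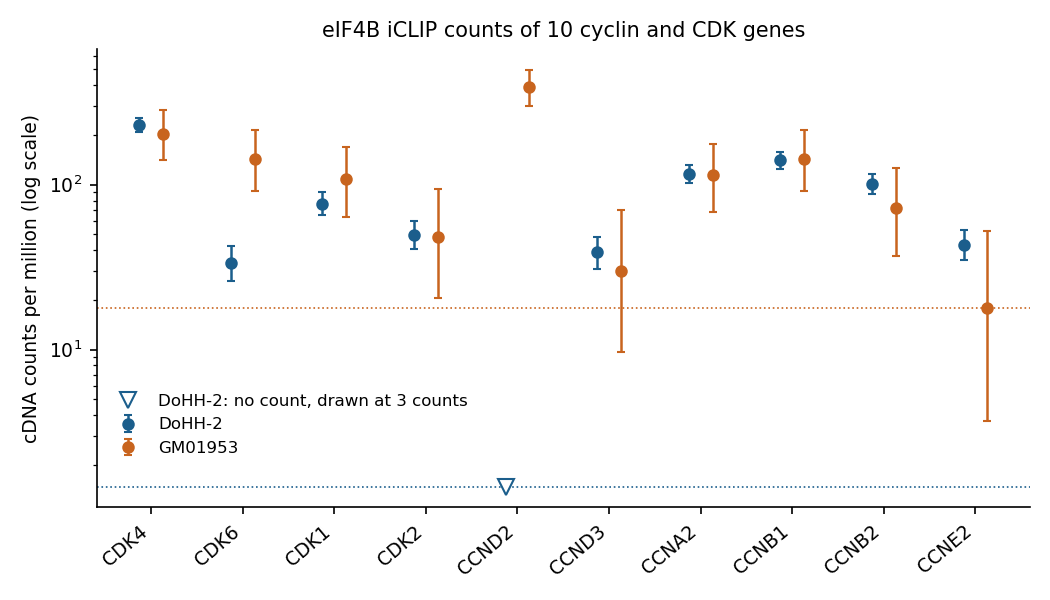
cpm (log scale) of each gene in DoHH-2 (blue) and GM01953 (orange), with exact Poisson 95% intervals; dotted lines mark 3 counts in each table. The lines differ beyond the intervals for CDK6 and for CCND2, whose open triangle marks 0 counts in DoHH-2; GM01953 intervals are wide because its table is shallower.

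Of the 10 genes, 7 had a ratio of cpm between the quartiles of all coding genes tested (0.612 and 1.75). The ratio of DoHH-2 to GM01953 was 1.13 for CDK4 (exact conditional 95% interval 0.799–1.65), against a median of 1.04 over 6217 coding genes with a mean of at least 30 cpm. The interval of the ratio lay below 1 for 2 of the 10 genes (CDK6 and CCND2), as for 21.6% of the tested coding genes, and above 1 for none of the 10, as for 21.2%. At a 2-fold limit, 2 of the 10 genes were higher in GM01953 (CDK6 and CCND2), where 18.7% of the tested coding genes were, and 1 (CCNE2) was higher in DoHH-2, where 20.3% were. Of the 9 genes with at least 1 count in each line, which leaves out CCND2, 1 was higher in each line, beside 22.8% (GM01953) and 22.4% (DoHH-2) of coding genes. Of the 4 with a mean of at least 100 cpm, 1 (CCND2) was higher in GM01953 and 0 in DoHH-2, beside 15.7% and 15.3%. The CCNE2 ratio was 2.41, but rested on 88 and 3 counts and had an interval of 0.799–11.9, and with each position counted once, an alternative chosen after seeing the data, it was 1.69 (0.555–8.36), under the 2-fold limit. Summed over the 10 genes the ratio was 0.654 (0.567–0.758). CCND2 decided this value, since the ratio was 0.943 (0.796–1.12) without it, a calculation chosen after the values were seen. The cpm of eIF4B cross-links reflects both the amount of an mRNA and its binding, and less mRNA and less binding per mRNA cannot be told apart in these tables.

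When counts were compared between genes they were divided by the length of the mRNA. CDK4 had the densest cross-links in both lines, with 237 counts per kb of mRNA in DoHH-2 (215–260) and 17.7 in GM01953 (12.2–24.8). In DoHH-2, CCNB1 and CCNB2 followed at 124 counts per kb each, and the CDK4 density was 1.92 times that of either (1.64–2.25 for CCNB1, 1.61–2.29 for CCNB2). CDK1 at 76.8 and CCNA2 at 75.7 counts per kb could not be separated from each other, and CDK4 was 3.09 (2.55–3.75) and 3.13 (2.65–3.71) times as dense. CDK2 (41.5), CCND3 (34.6) and CCNE2 (28.4) formed the next group, in which neighbours overlapped. Among the genes with DoHH-2 counts, CDK6 was lowest with 4.20 counts per kb of its long mRNA, 56.4 times below CDK4 (41.9–77.4). The GM01953 densities after CDK4 were 10.8 for CCNB1, 10.0 for CCND2, 9.0 for CDK1, 8.06 for CCNB2 and 5.82 for CCNA2. Their intervals overlapped, and CDK4 against CCNB1 (ratio 1.63, 0.923–2.94) was not distinguishable at this depth.

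**Figure D2:**
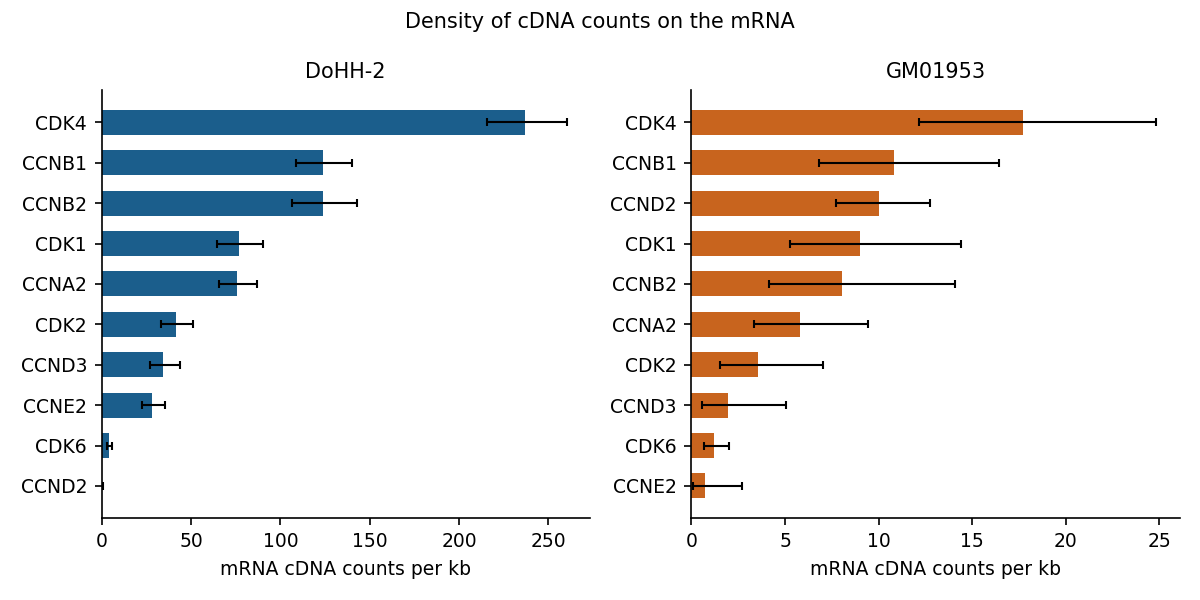
cDNA counts per kb of mRNA for each gene in DoHH-2 (left) and GM01953 (right), sorted within each line, with exact Poisson 95% intervals. The axes differ because the tables differ in depth; CDK4 is the highest bar in both, and CCND2 has no bar in DoHH-2.

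A false discovery rate (FDR) below 0.05 made a position a binding site, and a gene with over 20 counts at its sites was called bound. The study also asked for enrichment of a gene over total RNA. That step was not run here, so these calls are not the study's and can also reflect the amount of an mRNA. In DoHH-2, 6 of the 10 genes were bound (CDK4, CDK1, CCND3, CCNA2, CCNB1 and CCNB2), beside 33.3% of coding genes with a count. The other genes with DoHH-2 counts missed this limit. CDK2 had 2 of 101 counts at sites (1.98%), CDK6 had 16.2% and CCNE2 17.0%. CDK4 (68.6%) and CCNB2 (67.3%) had most of their counts at sites, CDK1 about as many at sites as elsewhere (50.6%), and CCND3 (35.4%), CCNB1 (34.4%) and CCNA2 (29.2%) fewer. In GM01953, CDK4, CDK6 and CCND2 were bound, 3 of 10 beside 8.34% of coding genes. Some calls lay close to the limit. The CCND3 call in DoHH-2 rested on 28 counts at sites, with no position above 2. In GM01953 the CDK4 call rested on 22, of which 3 were at an FDR of 0.029. The CDK6 call rested on 23 counts at sites, introns included. Only 14 of its counts were on the mRNA, too few to pass the limit alone.

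CDK4, the G1 kinase that pairs with D-type cyclins, lies at chr12:57747727-57756013 on the minus strand of GRCh38 and had 442 of its 468 DoHH-2 counts on the MANE Select mRNA. The 5′ UTR held 87 of these (19.7%, Wilson 95% interval 16.2–23.6), the CDS 191 (43.2%) and the 3′ UTR 164 (37.1%). Per kb, the 5′ UTR had 561 counts, the CDS 209 and the 3′ UTR 206. With the region of 50 nt to each side of the start codon set apart, that region had 65 counts (631 per kb) and the rest of the 5′ UTR 66 (629 per kb), against 171 per kb in the remaining CDS. By region, cross-links were therefore densest from the 5′ end to just inside the reading frame, with a further cluster near the end of the counts in the 3′ UTR.

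The 3 densest windows of 30 nt on the CDK4 mRNA that do not overlap are shown because they hold these clusters. They are written 5′ to 3′ from the reference genome, with T for U, and capitals mark bases with at least 1 DoHH-2 count. Positions count from the A of the start codon as +1.
CDK4 3′ UTR, +1136 to +1165, chr12:57748272-57748301, minus strand: CTtTCccTaccTTTATATTtgggGTcCTTT
CDK4 start codon, −19 to +11, chr12:57751707-57751736, minus strand: GgtCTcCCTTGaTcTgaGaatggCTacCtC
CDK4 5′ UTR, −146 to −117, chr12:57752272-57752301, minus strand: CCTGtgTCTAtGGtCGggCCCTcTGcGtCC

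The 3′ UTR window held 66 of 442 counts (14.9%), of which 16 were at +1152, the highest position of the mRNA, and 15 at the next base. Of its bases 76.7% were pyrimidines. The start codon window held 38 counts, 14 of them at +11, and the 5′ UTR window 36 counts at 21 positions, none above 3. A separate position at +38, in the CDS, had 15 counts. GM01953 had 0, 1 and 1 of its 33 mRNA counts in the 3 windows. The 79-nt stretch from −31 to +48 that the study used as a CDK4 test RNA held 62 DoHH-2 counts (785 per kb, 14.0% of counts in 4.24% of the mRNA) and 4 GM01953 counts. Its 34-nt 5′ UTR version, −31 to +3, held 21 DoHH-2 counts (618 per kb) and its 48-nt CDS version, +1 to +48, 41 (854 per kb). In the paper's binding assays, recombinant eIF4B preferred the part before the start site. Affinity for a test RNA and cross-link counts from cells are different measures, and the relation between them was not tested.

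Counts on CDK4 stopped well before the annotated end of the mRNA. After the 3′ UTR window only 6 of 442 DoHH-2 counts lay in the remaining 545 nt, the last at +1285 of 1710. In 7 of the 9 genes with DoHH-2 counts the last position was 29 to 76 nt from the end of the mRNA. CDK4 (425 nt, 22.8% of the mRNA) and CDK6 (898 nt, 7.70%) were the exceptions. CDK6 had only 49 counts on its long mRNA, so its gap says less. The GM01953 counts of CDK4 ended at +1068.

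The GM01953 counts of CDK4 lay mostly in the CDS and overlapped the DoHH-2 peaks in part. The 5′ UTR held 3 of 33 counts (9.09%, 3.14–23.6), the CDS 22 (66.7%) and the 3′ UTR 8 (24.2%). The densest window, +31 to +60, had 8 counts in GM01953 and 24 in DoHH-2. GM01953 had 3 of these at +40, beside the DoHH-2 peak at +38, and 4 at +60, where DoHH-2 had 1. The next GM01953 window, +464 to +493, held 7 of 33 counts in GM01953 and 1 of 442 in DoHH-2. GM01953 had no count near the DoHH-2 peak at +1152. Of the 33 counts, 22 were within 5 nt of a DoHH-2 position (66.7%), and such positions and their neighbours cover 52.6% of the CDK4 mRNA.

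**Figure D3:**
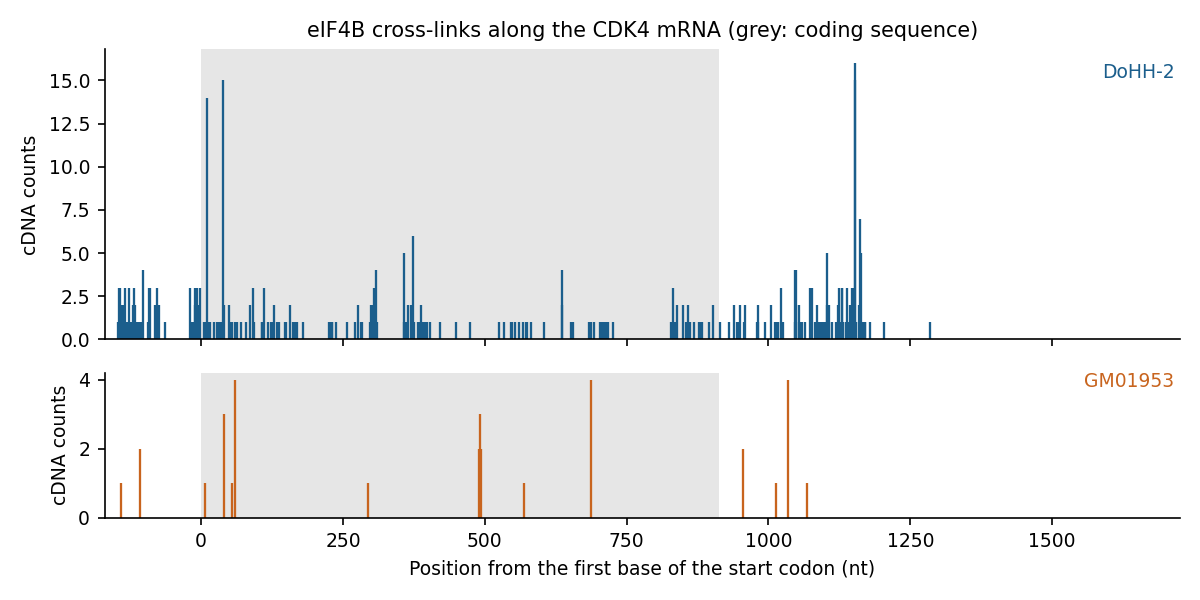
cDNA counts at each position of the CDK4 mRNA (vertical axis) by distance from the first base of the start codon (nt), for DoHH-2 (top) and GM01953 (bottom, its own scale); the coding sequence is grey. DoHH-2 counts gather in the 5′ UTR, at +11 and +38 and near +1152, and few lie beyond; GM01953 has no count above 4.

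CDK6, the second D-cyclin kinase, lies at chr7:92604921-92836573 on the minus strand, and gave the clearest contrast with CDK4 among the kinases. Its cpm was 4.29-fold higher in GM01953 (2.58–6.93). The 24 GM01953 counts lay at 7 positions (3.43 counts per position), against 68 counts at 57 positions in DoHH-2 (1.19 per position). On the mRNA the GM01953 counts were 6 at +8294, 5 at −49, 2 at +55 and 1 at +1212. None was within 5 nt of a DoHH-2 position, and the bases that near to one make up 3.58% of this mRNA. Introns held 10 of the 24 counts (41.7%) in GM01953 and 19 of 68 (27.9%) in DoHH-2, whereas for CDK4 they held 0% and 1.5%. Counting each position once gave a ratio of 0.542 (0.247–1.41) in a calculation added after the values were seen, which leaves the difference within counting error. Other such calculations gave 0.259 (0.141–0.508) on the mRNA only and 0.0501 (0.0220–0.107) at FDR below 0.05. The authors also assigned 2 of the GM01953 counts and 4 of the DoHH-2 counts to RNU6-10P, a U6 pseudogene. In DoHH-2, 39 of 49 mRNA counts were in the 3′ UTR (79.6%), the highest position being +1726 with 8 counts.

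CCND2 encodes cyclin D2, a G1 partner of CDK4 and CDK6, and lies at chr12:4269771-4305353 on the plus strand. Its cpm was at least 208-fold higher in GM01953 by the exact conditional interval, and the 65 counts set against the limit of 3 counts in DoHH-2, without the error of the 65, give 263-fold. DoHH-2 had no position in the gene on either strand, while the 1 Mb to each side held 436 DoHH-2 positions with 532 counts, the nearest 72.2 kb before and 15.4 kb after the gene. Of 1610 coding genes with at least 20 counts in GM01953, 22 (1.37%) had none in DoHH-2, and 1 of these exceeded CCND2. The 5′ UTR held 43 of the 65 GM01953 counts (66.2%, 54.0–76.5) in 4.30% of the mRNA, all more than 50 nt before the start codon. The share was 57.1 percentage points above that of CDK4 in the same line (38.2–69.0). The densest window, shown with the bases that had a GM01953 count in capitals, held 21 counts and was 90% pyrimidine.
CCND2 5′ UTR, −173 to −144, chr12:4273868-4273897, plus strand: tcCCTtCTGctccaccttctctcTcTgccC

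CCND3 encodes cyclin D3, the D-type cyclin with counts in both lines, and lies at chr6:41934934-42050357. It had 79 counts in DoHH-2 (38.9 cpm) and 5 in GM01953 (29.9 cpm), a ratio of 1.30 (0.534–4.11). The DoHH-2 counts were scattered over 74 positions, none above 2. Its 5′ UTR share in DoHH-2 differed from that of CDK4 by 0.317 percentage points, with an interval of −8.34 to 11.7.

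CCNE2 and CDK2, cyclin E2 and the kinase that it activates at entry to S phase, had few counts per position. CDK2 (chr12:55966781-55972789) had 101 counts at 91 positions in DoHH-2 and 8 in GM01953, at 49.7 and 47.8 cpm, a ratio of 1.04 (0.507–2.47). Its highest DoHH-2 position had 3 counts. CCNE2 had 88 counts at 76 positions in DoHH-2, and 3 in GM01953 at 17.9 cpm. It had 1 of 76 mRNA counts (1.32%) in its 51-nt 5′ UTR, 18.4 percentage points below CDK4 (11.7–22.5 below), and 55.3% in the CDS. This 5′ UTR makes up only 1.91% of the mRNA, which is inside the interval of its share of counts (0.233–7.08%). In the transcript with the longest CDS, the CCNE2 5′ UTR is 253 nt.

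CCNA2, CCNB1, CCNB2 and CDK1 act from S phase to mitosis. Summed, the 3 cyclins had a cpm ratio of 1.09 between the lines (0.825–1.46). Their densest windows in DoHH-2 all lay in the 5′ UTR, unlike that of CDK4. They are shown for comparison with the CDK4 windows, with capitals at bases with a DoHH-2 count.
CDK1 5′ UTR, −102 to −73, chr10:60778494-60778523, plus strand: ctGgCTCtTGgaaAttGaGCgGagagcGaC
CCNA2 5′ UTR, −195 to −166, chr4:121823794-121823823, minus strand: TgcgcctTtcgcaacCtcctcggcCCtgcG
CCNB1 5′ UTR, −92 to −63, chr5:69167171-69167200, plus strand: TGttgGTTTCTGcTggGtgtaggTCCTtgG
CCNB2 5′ UTR, −81 to −52, chr15:59105188-59105217, plus strand: cgCCtcGtacgCtAGtGTCcTcCCTTtTCA

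CCNB2, which encodes cyclin B2, had the highest 5′ UTR share of the 9 genes in DoHH-2. Its 5′ UTR held 74 of 184 mRNA counts (40.2%, 33.4–47.4), 20.5 percentage points above CDK4 (12.7–28.5), and the window above held 38 (20.7%). In GM01953 the 5′ UTR held 7 of 12 counts (58.3%), and the densest window, with 5 counts, overlapped that of DoHH-2. Of the DoHH-2 counts of CCNB2, 27 of 205 were at positions that the authors also assigned to the non-coding gene RP11-59H7.3.

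CDK1, the mitotic kinase, had 48 of 145 mRNA counts in the 5′ UTR (33.1%, 26.0–41.1), 13.4 percentage points above CDK4 (5.26–22.1). The window shown held 23, and the highest position was −21 with 9 counts. In GM01953 the 5′ UTR held 7 of 17 counts (41.2%), and the highest position was in the 3′ UTR, at +1088 with 6 counts, where DoHH-2 had 2. Of the GM01953 mRNA counts, 16 of 17 were within 5 nt of a DoHH-2 position, in 34.0% of the mRNA.

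CCNB1, cyclin B1, had the highest share of counts in the CDS of the 4 genes. In DoHH-2 the CDS held 163 of 251 mRNA counts (64.9%), the 5′ UTR 20.3% and the 3′ UTR 14.7%. The CDS makes up 64.2% of the mRNA, so this share was 1.01-fold over length (1.09-fold for CCNA2), and the densest region was the 5′ UTR, with 451 counts per kb against 125 in the CDS. The 5′ UTR share differed from that of CDK4 by 0.635 percentage points (−5.37 to 7.04), while the window shown held 29 counts. In GM01953, 21 of 22 counts were in the CDS and none was in the 5′ UTR, where DoHH-2 had 51. Its highest position in GM01953 was +60 with 8 counts, and in DoHH-2 +451 with 9. CCNA2, cyclin A2, had 24.5% of its 208 mRNA counts in the 5′ UTR, 4.84 percentage points above CDK4 (−1.82 to 11.99), and 51.4% in the CDS. Its highest DoHH-2 position was +1057 with 8 counts, and 6 of 16 GM01953 mRNA counts (37.5%) were within 5 nt of a DoHH-2 position, in 40.2% of the mRNA.

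**Figure D4:**
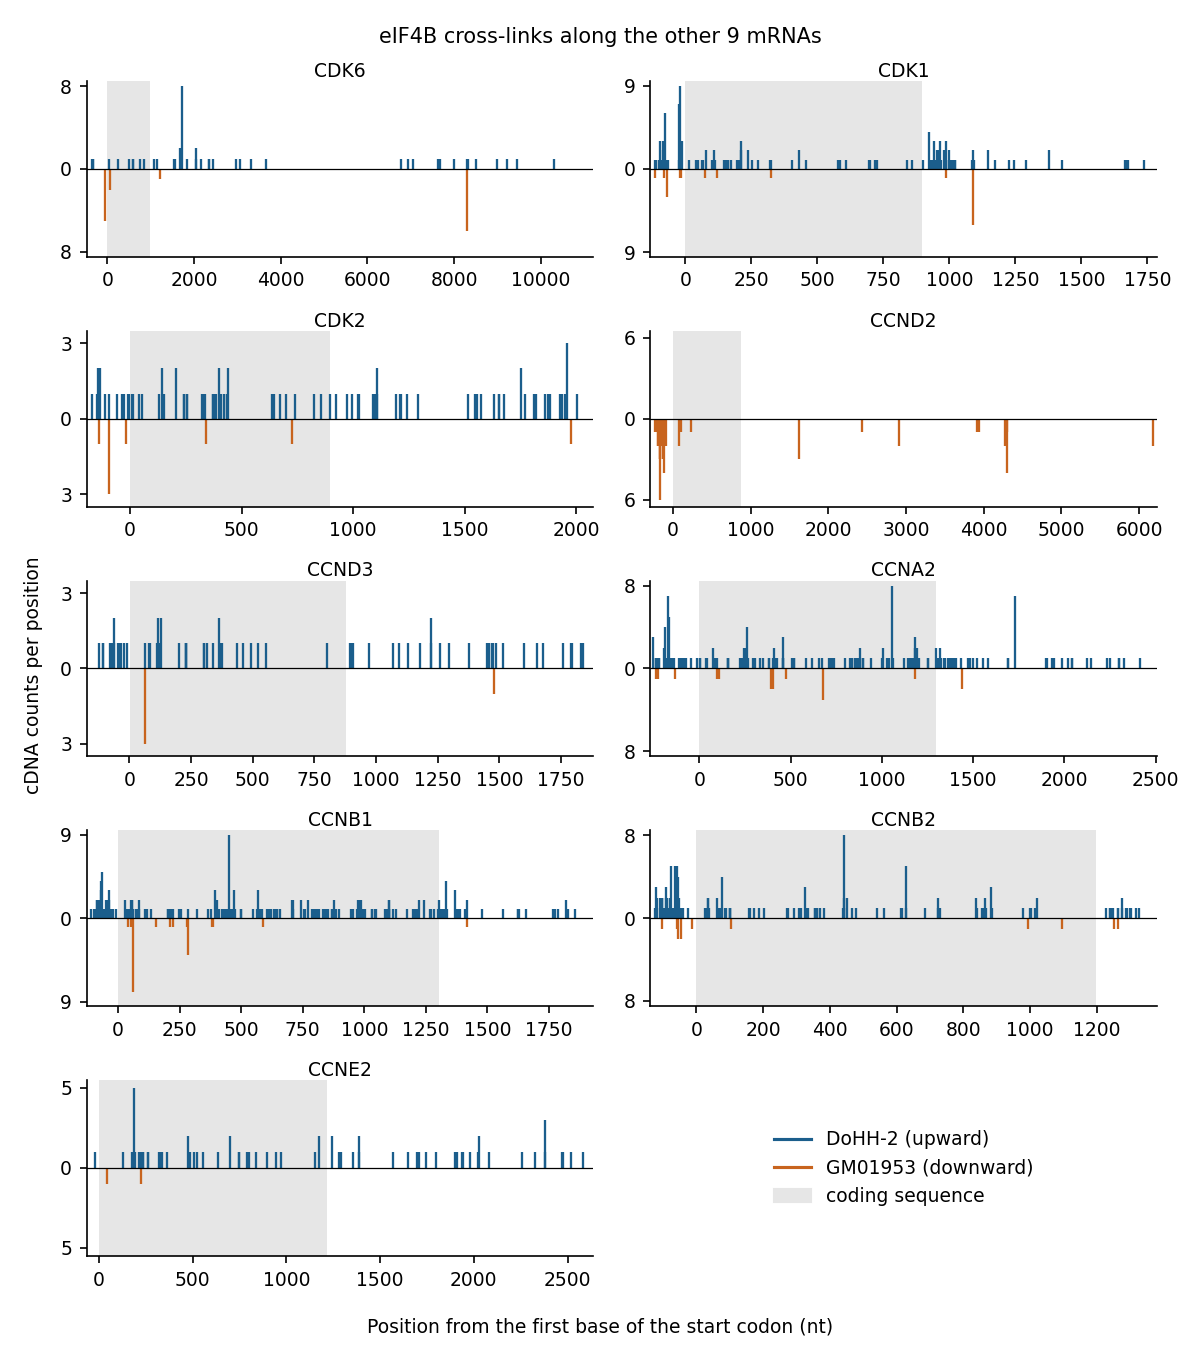
cDNA counts per position on the other 9 mRNAs by distance from the first base of the start codon (nt), DoHH-2 upward and GM01953 downward, with the coding sequence in grey and a scale of its own for each gene. CCNB2, CDK1, CCNB1 and CCNA2 show a cluster in the DoHH-2 5′ UTR, and CCND2 has GM01953 counts only.

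Taking the genes as a set, the 5′ UTR had the highest density of the 3 mRNA regions in 7 of the 8 with at least 50 mRNA counts in DoHH-2, beside 65.1% of 5210 coding genes. CCNE2, with 1 count in a 5′ UTR of 51 nt, was the exception. In GM01953 only CCND2 reached 50 counts, and its 5′ UTR was densest, beside 53.6% of 252 coding genes. The other 9 genes summed had 255 of 1076 DoHH-2 counts in the 5′ UTR (23.7%, 21.3–26.3), and this interval overlapped that of CDK4 (19.7%, 16.2–23.6). At positions with an FDR below 0.05 the intervals did not overlap, at 43.4% (38.8–48.2) for the other 9 and 26.2% (21.7–31.2) for CDK4. The median share over coding genes was 8.20%. Relative to length, the 2.37-fold excess of CDK4 in the 5′ UTR lay at percentile 56.1 of coding genes. Of the other genes with at least 50 counts, CDK1 (85.5), CCNB2 (83.5), CCNB1 (74.1), CCNA2 (60.9) and CCND3 (59.2) lay above it, and CDK2 (42.4) and CCNE2 (17.1) below. In GM01953 the other 9 genes had 70 of 160 counts in the 5′ UTR (43.8%, 36.3–51.5), of which 43 were from CCND2.

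**Figure D5:**
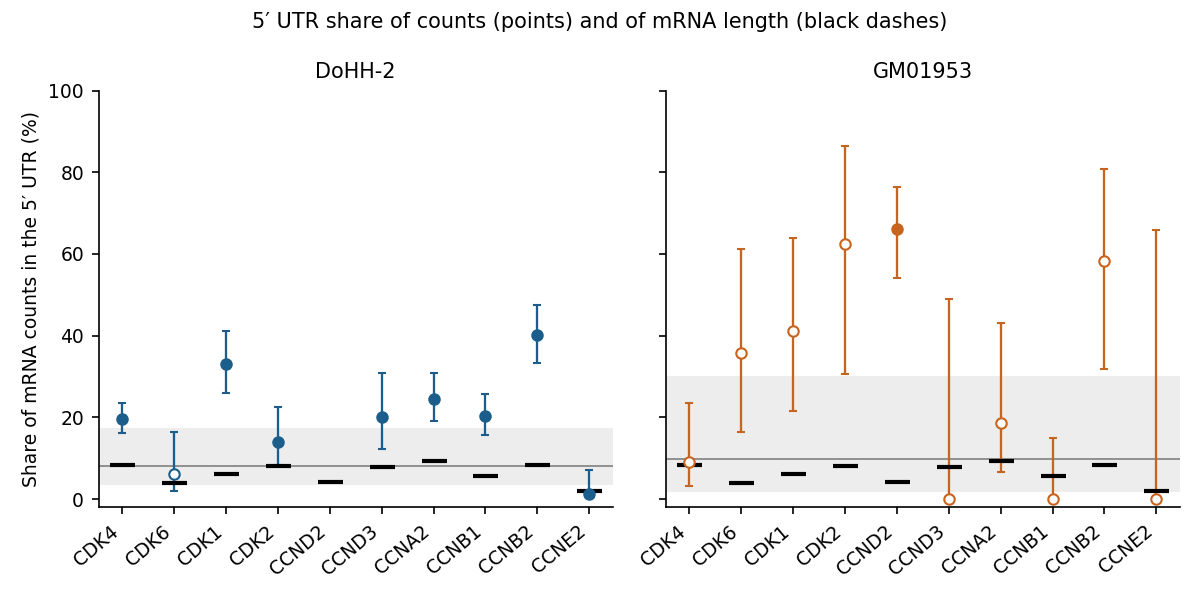
Share of mRNA counts in the 5′ UTR (%) for each gene in DoHH-2 (left) and GM01953 (right) with Wilson 95% intervals; open circles have fewer than 50 counts, black dashes give the 5′ UTR share of mRNA length, and the grey line and band give the median and quartiles of coding genes. CCNB2 and CDK1 lie above CDK4 in DoHH-2, and CCND2 is highest among the filled points.

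The spread of counts over 5 regions (the UTRs, the CDS and the surroundings of both its end codons) was compared between CDK4 and 2926 coding genes with at least 100 DoHH-2 mRNA counts, as the part of the counts that would have to move to another region. The nearest genes were HPRT1 (3.90% of counts), BIK (4.65%), CLTA (5.21%), APH1A (5.45%) and EMC4 (5.58%), against a median of 29.95%. Of the other cyclins and kinases, 8 could be compared, since CCND2 had no DoHH-2 count, and 4 of these (CCND3, CDK2, CCNE2 and CDK6) had fewer than the 100 counts asked of the coding genes. CDK1 was the nearest (8.60%), followed by CCND3 (9.88%) and CDK2 (13.7%). CCNA2 (26.7%), CCNE2 (28.3%) and CCNB1 (31.6%) were near the median, and CCNB2 (37.5%) and CDK6 (45.0%) beyond it. The order of near genes was not stable: with codon regions of 25 nt, 1 of the 5 nearest genes was kept, and with densities in place of counts, 0.

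The base at the cross-link was U at 40.4% of the 1083 DoHH-2 positions on the 9 mRNAs with counts (37.5–43.3), while U made up 29.6% of the bases of these mRNAs, and A was found at 13.0% against 28.0%. CDK4 had U at 36.8% and C at 32.2% of its positions, against 24.9% and 25.4% of its mRNA. At the next base U was at 43.0%. Over all coding mRNAs U was found at 41.2% and A at 13.2% of positions. The 5′ UTR of CDK4 is 155 nt long with 69.7% GC, at percentile 65.4 of coding genes, and the range over the 10 genes was 52.9% (CCNE2) to 80.5% (CCND3). Neither GAGAGA nor AGAGAG was found on the transcribed strand of any of the 10 5′ UTRs. These words, which overlap each other, occur in 13.3% of the 18632 MANE Select 5′ UTRs.

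A list of 38 other genes of the pathway gave the setting for the 10. Counts were found for 35 of them in DoHH-2 and for 30 in GM01953, and 18 (51.4%) and 1 (3.33%) of those with counts were bound, beside 33.3% and 8.34% of coding genes. Of the 26 with a mean of at least 30 cpm, 7 (26.9%) were at least 2-fold higher in DoHH-2, where 20.3% of coding genes were, 3 (11.5%) in GM01953, where 18.7% were, and 16 neither, with a median ratio of 1.32 (1.04 over all coding genes tested). The 8 genes with the most DoHH-2 counts, not scaled to length, are given here. TFDP2, an E2F partner, had 782 in DoHH-2 and 11 in GM01953 (ratio 5.85, 3.25–11.8). CKS2, a small subunit that docks on CDKs, had 486 and 35 (1.14, 0.810–1.66), of which 44.1% on the DoHH-2 mRNA were in the 5′ UTR. E2F2, a G1/S transcription factor, had 360 and 7 (4.23, 2.03–10.6), whereas the other DNA-binding partner TFDP1 had 345 and 54 (0.525, 0.393–0.714).

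Among regulators of the kinases, CDKN2A, whose p16 product inhibits CDK4 and CDK6, had 304 counts in DoHH-2 and 5 in GM01953 (5.0, 2.12–15.5). Of the 304 DoHH-2 counts, 167 were on the MANE Select mRNA, and none of these was in the 5′ UTR. The ratio therefore also covers counts elsewhere in the gene. WEE1, which restrains CDK1 by phosphorylation, had 228 and 7 (2.68, 1.28–6.74), FBXW7, the receptor of the ubiquitin ligase for cyclin E, 231 and 14 (1.36, 0.792–2.52), and MNAT1, part of the CDK-activating kinase, 175 and 23 (0.626, 0.404–1.01). For MNAT1, 64 of the 175 DoHH-2 counts were on the mRNA.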

How the data were processed

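eIF4B iCLIP tables of DoHH-2 (4 samples pooled) and GM01953 (2 samples pooled) were used. The cDNA counts per position were deposited by the authors, who removed PCR duplicates with BBMap dedupe, demultiplexed with Je, mapped to GRCh38 with HiSat2 (HISAT2 and GRCh38 are also in the submitters' processing notes), pooled the replicates and ran iCount. The FDR, a q-value per position, was also deposited by the authors. Versions and the annotation release are not given in the sources used here. Counts are whole and not normalized.

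Position numbers were read as counted from 0, because base composition at the cross-link then matched between strands. Counts of each gene symbol were summed over unique positions and placed on the GENCODE 44 MANE Select transcript. A position listed for several genes counted for each. The cpm used all counts of a table. Poisson, Wilson, Newcombe (differences of shares) and conditional Clopper-Pearson 95% intervals were computed with scipy 1.17.1 and cover counting error only, and neither replicate spread nor remaining PCR duplicates. A gene at 0 was set against 3 counts. Coding genes with a mean of at least 30 cpm gave the background of 2-fold calls. No test was run, since values are pooled. Sequences were read from the GRCh38 reference. Placement and intervals were tested on simulated data. Words of 31 nt at mRNA positions were unique in the genome for 99.5–100% of the counts of each gene.

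Every one of the 10 genes was named. From the pathway list, the 8 with the highest DoHH-2 counts were named, and for likeness the 5 nearest genes. Beyond the densest window, the further windows of CDK4 were picked with their counts in view. The genes and lists were chosen with earlier results of these data known. Alternatives were thresholds on the FDR, other denominators, transcripts and region limits, positions counted once, equal depth and genes left out.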

Additional observations from a re-analysis of the deposited data

How the results depend on the processing

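The summed ratio of DoHH-2 to GM01953 stayed below 1 in all alternatives tried, at 0.563 without CDK4 and 0.943 without CCND2 (the latter chosen after seeing the data). The 5′ UTR share of CDK4 in DoHH-2 was 26.2% at FDR below 0.05 and 14.9% without the 50 nt, or the 25 nt, before the start codon. For the other 9 genes it was 43.4% at FDR below 0.05, 19.2% with each position counted once and 20.2% as the median of the genes. At FDR below 0.05 the interval of CDK4 (21.7–31.2) no longer overlapped that of the other 9 (38.8–48.2). The cause was not tested. In alternatives chosen after seeing the data, the CDK6 ratio was 0.542 (0.247–1.41) with each position counted once, 0.259 on the mRNA only and 0.0501 (0.0220–0.107) at FDR below 0.05. The CCNE2 ratio was 1.69 with each position counted once. The CDK4 ratio, 1.13 as reported, was 0.992 on the mRNA only and 1.53 (0.992–2.47) at FDR below 0.05. The ratios of CDK6 and CCNE2 stayed on their side of 1 in the alternatives that gave them a value, and none was run for CCND2 alone. No paired analysis was possible because the replicates are pooled in the deposited tables, and for the same reason no replicate could be left out. Depth limits GM01953, where 3 counts equal 17.9 cpm: values of CCND3, CDK2 and CCNE2 there rest on 5, 8 and 3 counts.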
